A study of Mus musculus with 27 samples.

Results

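Arc amacrine cells were compared with cone photoreceptors of the adult mouse retina across all named genes, using the 3 arrays titled Arc and the 3 arrays titled as holding 0 starburst and 200 cone cells, 6 of the 27 arrays of the series. The comparison covered 19301 genes, each read by its probe set of highest mean over all arrays, of which 12441 were tested. Arc cells came from the line Tg(Arc-EGFP)194Gsat/Mmcd, in which the Arc gene's regulatory sequence drives green fluorescent protein, and cones from Tg(Chrnb4-EGFP)1Gsat, in which that of the nicotinic receptor gene Chrnb4 does so. As a further reference, 3 arrays of pure starburst amacrine cells from the cross of 129S6-Chat_tm1(cre)Lowl/J with Rosa26-LSL-RFP were used, where Cre from the choline acetyltransferase gene turns on red fluorescent protein. The background of both EGFP lines mixed C57BL/6J with an FVB/N-Swiss Webster hybrid. The labels state that mice from the resource centres carried a recessive mutation that causes photoreceptor degeneration, and that an F2 generation after backcrossing was used. Each array held RNA of 200 fluorescent cells sorted from dissociated adult retinas, the cones and starburst cells from pools that joined 2 retinas of the cone line with retinas of the starburst cross, and each group had 3 biological replicates. How many Arc mice were pooled is not given in the sources used here. The design text calls the Arc arrays an internal batch control, so cell type, mouse line and any batch cannot be told apart.

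Cones are the photoreceptors of daylight and colour vision. Light absorbed by an opsin activates the G protein transducin, which turns on a phosphodiesterase that hydrolyses cyclic GMP and closes cation channels, and the cell releases less glutamate from a ribbon synapse. Amacrine cells are inhibitory interneurons of the inner retina. Most of them release GABA or glycine, many also store neuropeptides, and their classes are told apart by transcription factors, peptides and the layer in which they branch.

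The labels were checked first, on the genes whose regulatory sequence drives each reporter. Arc, an immediate early gene whose product acts at synapses, had log2 values of 4.57, 4.58 and 4.46 on the Arc arrays (replicates 1, 2 and 3, the order used throughout) and 3.18, 3.34 and 3.25 on the cone arrays. The groups did not overlap, and the log2 fold change, always given as Arc minus cone, was 1.28 ± 0.14 (SE of the fit, 3 arrays against 3; adjusted p = 9.11e-07, limma with Benjamini-Hochberg adjustment). With arrays centred on housekeeping genes, described below, Arc was not called. Chrnb4 had values of 2.42, 2.44 and 2.52 on the Arc arrays and 4.71, 4.22 and 3.26 on the cone arrays, with a log2 fold change of -1.60 ± 0.44 (adjusted p = 0.014). Without the first cone array this became -1.28 with an adjusted p of 0.0779. Chat, the driver of the starburst line, averaged 2.85 on the Arc arrays and 3.04 on the cone arrays, both near the median of all array values of 2.83. The arrays carry no detection call, so for values near or below that median a level cannot be told from background, and folds against them may understate a difference. The cell type markers were chosen with earlier results of these data known, so they are no check of the labels. Opn1mw and Pde6h were higher on every cone array and Cbln1, Klhl32 and Tfap2b on every Arc array, as given below.

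The third cone array stood apart from the other two. Its correlation with each of them over all named genes was 0.936, against 0.963 between those 2 and 0.977 to 0.978 among the Arc arrays, while Arc arrays correlated with cone arrays at 0.895 to 0.912. The linear values of the 14 cone phototransduction genes summed to 12906 and 12548 on the first and second cone arrays and to 5255 on the third, against 115 to 229 on the Arc arrays. The 13 measured rod phototransduction genes ran the other way, at 3947 and 3773 on the first and second cone arrays and 6160 on the third, against 598 to 860 on the Arc arrays. So the third array carried less cone signal and more rod signal than the other cone arrays, and 11 of the 14 cone genes lay below both of them there. Amacrine transcription factor genes summed to 223 there against 171 and 156 on the other cone arrays, and GABA genes to 243 against 157 on both. In sorted pools like these, fewer cells of a type and less RNA per cell cannot be told apart. Where a named gene's call was lost without this array, the value without it is given, and so are the counts without it for several lists.

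**Figure D1:**
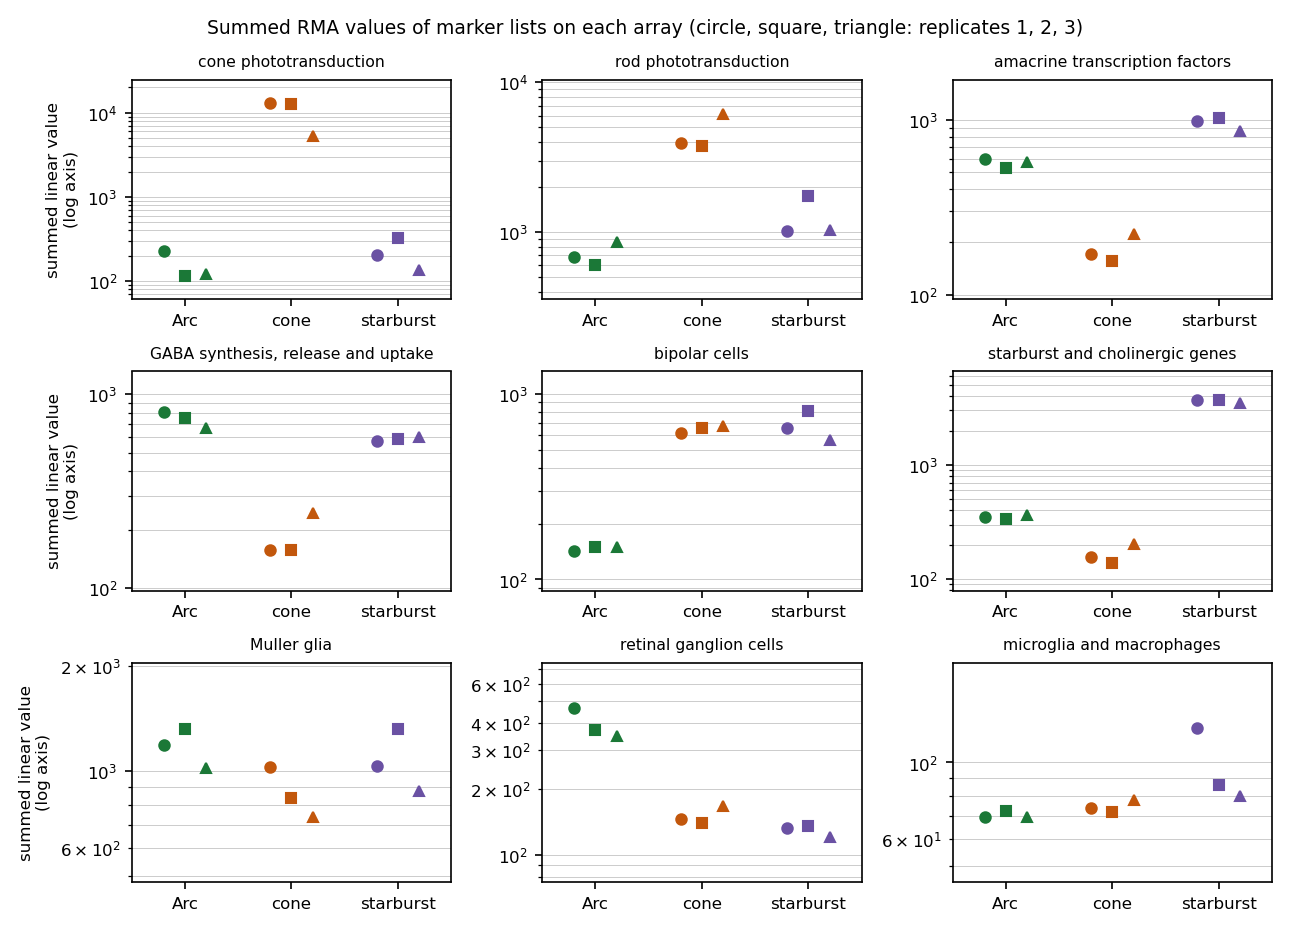
Summed linear RMA values (log axis) of 9 marker lists on each Arc, cone and starburst array, with the circle, square and triangle marking replicates 1, 2 and 3. The cone list falls from 12906 and 12548 on the first cone arrays to 5255 on the third, where the rod list reaches 6160; on the Arc arrays the same lists stay at or below 229 and 860.

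Of the 12441 tested genes, 974 were higher in Arc cells (7.83%) and 312 were higher in cones (2.51%), together 10.3%. A call needed an adjusted p under 0.05 and a log2 fold change of 1 or more in size. The 2 directions differed in steepness. Among the 974 genes 231 reached a log2 fold change of 2 and 12 reached 4, and among the 312 genes 111 and 22 did. A log2 fold change of 5 was reached by 2 genes higher in Arc cells and by 10 higher in cones. In 26 of the 1286 called genes the Arc and cone values overlapped, while 4259 of the tested genes (34.2%), more than were called, had groups that did not overlap. The split between directions rested on the scaling of the arrays. With each array centred on 10 housekeeping genes, which had a median difference of 0.40 and of which B2m was called, 457 genes were higher in Arc cells and 1039 in cones, so that 30.5% of called genes were higher in Arc cells in place of 75.7%, the median of all tested genes moving from 0.07 to -0.42. With quantile normalization repeated over the arrays the split was 684 to 425, or 61.7%, and without the third cone array it was 833 to 398, or 67.7%. No gene called in both was turned round by either scaling, while counts of modest differences in a list are relative to the deposited scale.

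**Figure D2:**
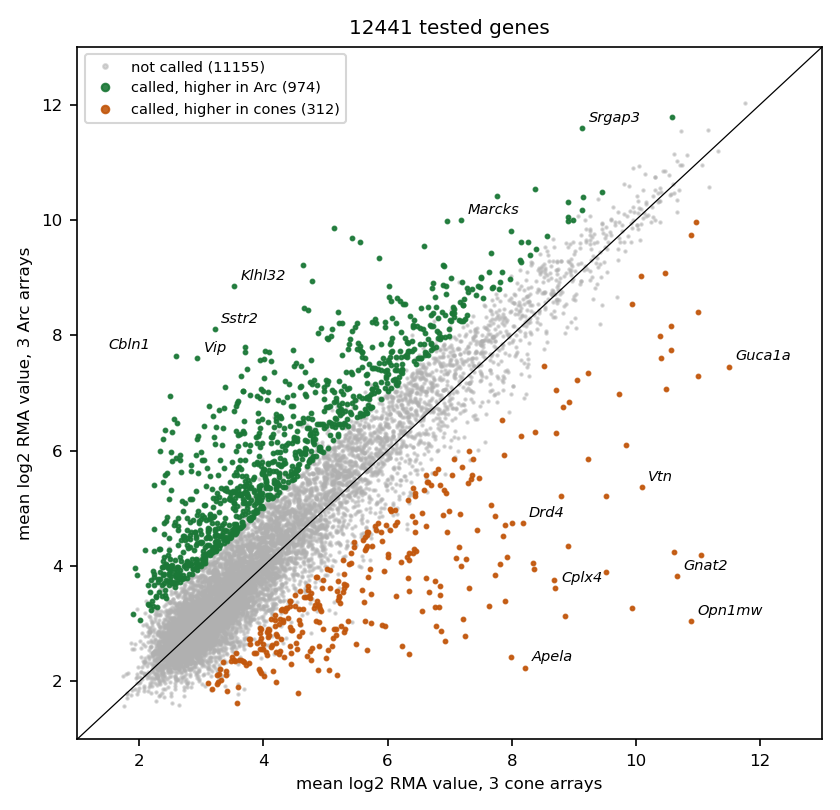
Mean log2 RMA value on the 3 Arc arrays against the mean on the 3 cone arrays for the 12441 tested genes, with 974 called higher in Arc cells and 312 called higher in cones; the line marks equal values. Genes above it include Klhl32, Cbln1, Sstr2 and Vip, and far below it lie Opn1mw and Gnat2.

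Cone phototransduction genes gave the steepest differences of the comparison. Of the 14 listed, 10 were higher in cones and none was higher in Arc cells, and the median over the measured members was -4.90 against -0.02 over all named genes. Opn1mw, the middle-wavelength cone opsin, had log2 values of 3.21, 2.92 and 3.00 on the Arc arrays and 11.13, 11.34 and 10.18 on the cone arrays. Every cone array lay above every Arc array, the third cone array being the lowest of the 3, and the log2 fold change was -7.84 ± 0.59 (adjusted p = 3.66e-09). Opn1sw, the short-wavelength opsin, had values of 5.93, 3.27 and 3.53 on the Arc arrays and 11.11, 11.01 and 9.74 on the cone arrays. Its first Arc array was the highest of the Arc arrays, and the fold was -6.38 ± 0.95 (adjusted p = 4.19e-05).

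The proteins that carry the signal on from the opsins followed the same order. Gnat2, the cone transducin alpha subunit, had values of 4.86, 3.24 and 3.36 in Arc cells and 11.22, 11.12 and 9.67 in cones, a log2 fold change of -6.85 ± 0.83 (adjusted p = 3.12e-06). Gnb3, the beta subunit that partners it, differed by -5.63 ± 0.80 (adjusted p = 2.32e-05). Pde6h, the inhibitory gamma subunit of the cone phosphodiesterase, had values of 5.34, 3.75 and 3.49 in Arc cells and 11.49, 11.30 and 10.38 in cones, a fold of -6.86 ± 0.59 (adjusted p = 2.83e-08). On the first Arc array Opn1sw, Gnat2, Pde6h and Arr3 all stood above the other Arc arrays, at levels far below any cone array. Pde6c, the catalytic subunit, had values of 2.94, 2.17 and 2.16 against 8.79, 8.54 and 6.65 (fold -5.57 ± 0.90, adjusted p = 0.000111). Arr3, the cone arrestin that ends opsin activity, had values of 4.61, 2.22 and 2.97 against 10.48, 10.55 and 8.78 (fold -6.67 ± 0.79, adjusted p = 2.43e-06). The remaining called members were the transducin gamma subunit Gngt2 at -4.23, the opsin kinase Grk1 at -1.78, and the channel subunit Cngb3 at -2.36. The call of Cngb3 was lost without any of 5 of the 6 arrays in turn, with adjusted p from 0.053 to 0.104. The uncalled members were Rgs9, Slc24a2, Kcnv2 and the channel subunit Cnga3, at -0.99 to -0.54, of which Rgs9 was called without the second cone array (-1.31, adjusted p = 0.0117). Without the third cone array Opn1mw differed by -8.19 and Gnat2 by -7.35, and 10 members were again called.

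**Figure D3:**
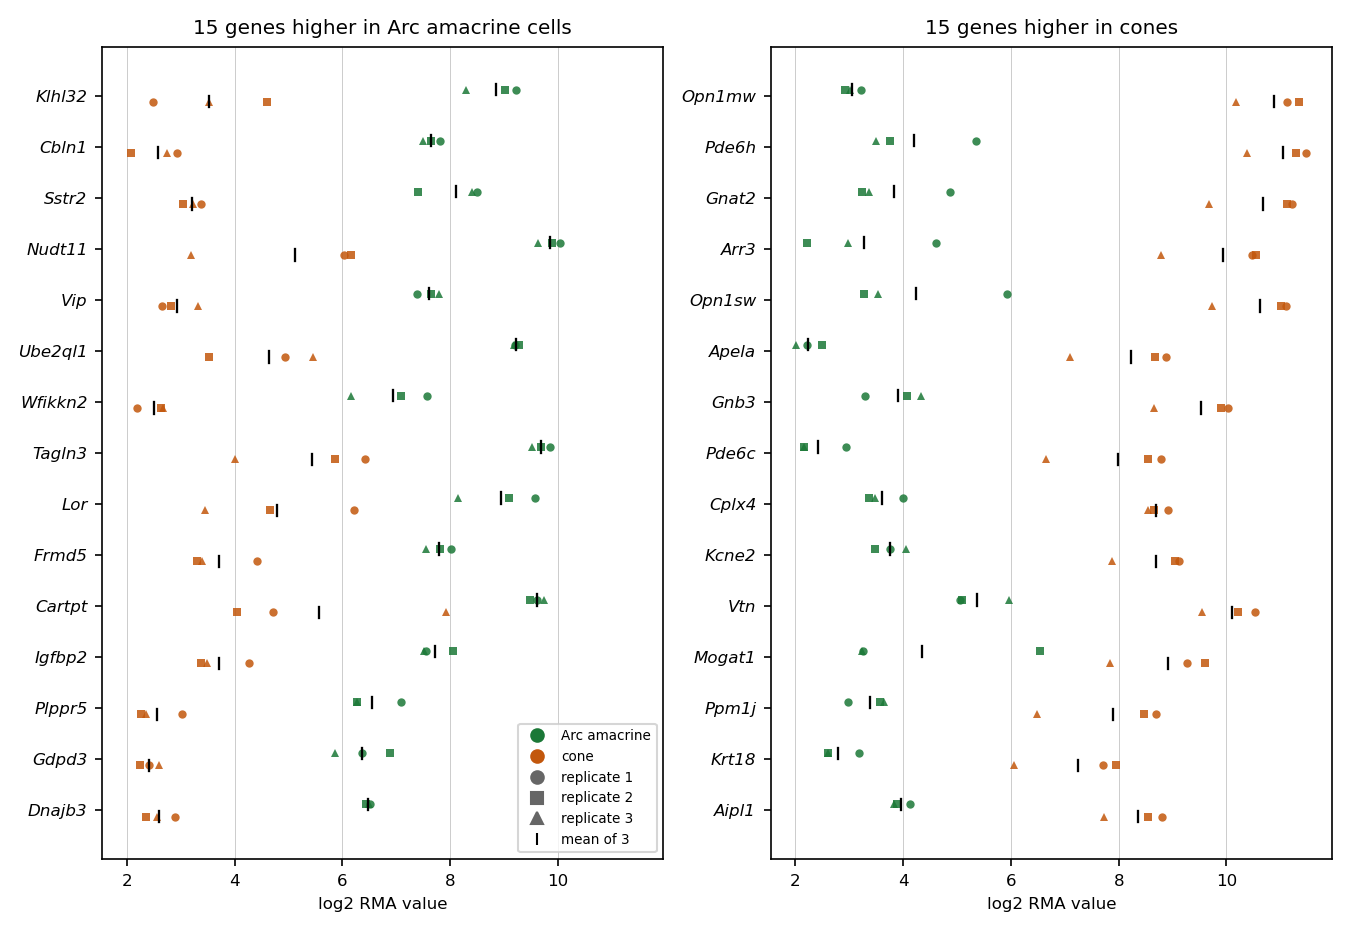
Log2 RMA values on each Arc (green) and cone (orange) array for the 15 genes of largest fold in each direction; symbols mark replicates and the black tick the mean of 3. The 30 genes were chosen among those whose groups do not overlap. Most cone genes in the right panel are lowest on the third cone array, and Cartpt in the left panel reaches 7.93 there.

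Rod phototransduction genes were also higher on the cone arrays. Of 13 measured members 5 were called, all in that direction, and the median was -1.12. Sag, the rod arrestin, had values of 7.03, 6.95 and 7.92 in Arc cells and 11.06, 11.02 and 10.95 in cones (fold -3.71 ± 0.27, adjusted p = 2.86e-09). Pde6g differed by -3.26 ± 0.23 and Gngt1 by -2.75 ± 0.23. Gnat1, the rod transducin alpha subunit, had values of 8.11, 8.28 and 10.41 on the cone arrays and 6.52, 6.82 and 7.18 on the Arc arrays. The third cone array held its highest value, and without that array the fold went from -2.09 to -1.36 with an adjusted p of 0.0646. Pde6b, the rod phosphodiesterase beta subunit, also peaked on that array, at 8.50 against 5.81 and 6.24 (fold -3.35, adjusted p = 0.00304; -2.52 without the array, adjusted p = 0.029). The rod transcription factor gene Nrl averaged 4.18 in Arc cells and 4.98 in cones and was not called. On the third cone array 9 of the 13 rod genes lay above both other cone arrays and 2 lay below both, and the part of rod RNA in these differences was not tested. With housekeeping centring 11 of the rod genes were called higher in cones.

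Among the calcium feedback and shut-off genes, Rcvrn, Guca1a and Pdc were higher in cones and the other 5 of 8 measured members were uncalled or, in 1 case, too dim to be tested. Rcvrn encodes recoverin, a calcium sensor that restrains opsin kinase, and differed by -4.31 ± 0.44 (adjusted p = 2.59e-07). Guca1a, which encodes the guanylate cyclase activator that restores cyclic GMP, had values of 7.51, 7.37 and 7.48 in Arc cells and 11.56, 11.51 and 11.44 in cones. The arrays of each group lay close together, and the fold was -4.05 ± 0.33 (adjusted p = 1.43e-08). Pdc, which encodes phosducin, a binder of transducin beta and gamma subunits, differed by -2.82 ± 0.16 (adjusted p = 6.54e-11).

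The photoreceptor transcription factors were led by Rax, a homeobox gene of the early eye field that cones keep. It had values of 3.23, 3.36 and 3.27 in Arc cells and 7.46, 7.15 and 5.88 in cones, without overlap (fold -3.54 ± 0.52, adjusted p = 3.82e-05). Otx2 and Crx, homeobox factors that switch on photoreceptor genes, differed by -2.85 ± 0.23 (adjusted p = 1.06e-08) and -1.73 ± 0.22 (adjusted p = 6.51e-06). Neurod1, a basic helix-loop-helix factor, differed by -2.41 ± 0.17 (adjusted p = 1.41e-09) from an Arc mean of 8.16. These 4 of 11 measured members were called (8 with housekeeping centring) and none was higher in Arc cells. Rxrg, a nuclear receptor of cones, averaged 3.23 and 4.86 and was not called with all arrays, but differed by -2.26 (adjusted p = 0.0181) without the third cone array. Thrb, the thyroid hormone receptor gene that sets opsin choice in cones, averaged 2.29 and 2.64 and was too dim to be tested.

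Crx and Otx2 bind the sequence TAATCC, or GGATTA on the other strand, and that sequence was looked up in the 250 bases before each gene's start in the RefSeq promoter table. It was present in 49 of 324 promoters of genes higher in cones (15.1%) and in 42 of 1040 promoters of genes higher in Arc cells (4.04%), with 5.61% of the promoters of tested genes and 6.25% of all promoters of that length holding it. Among genes with a log2 fold change of at least 2, the shares were 20.4% of 113 cone promoters and 2.95% of 237 Arc promoters. Mean G and C content was 56.5% in the promoters of genes higher in cones, 59.3% in those of genes higher in Arc cells and 58.7% in those of tested genes, and 53.0% and 59.2% in the sets of larger fold. The part of base composition in these shares was not tested. The 251 and 769 called genes that have a promoter in the table supplied these sequences, and a gene can have several. A match is a stretch of letters, not a bound site. The last 100 bases before the start are printed for genes higher in cones, because they show where the motif lies, in capitals, on the RefSeq build GRCm38.p6; Opn1mw is shown as the leading gene without it.
Gnat2, chr3:108092966-108093065, plus strand: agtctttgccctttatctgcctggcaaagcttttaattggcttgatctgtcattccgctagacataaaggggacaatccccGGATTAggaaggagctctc
Guca1a, chr17:47400607-47400706, minus strand: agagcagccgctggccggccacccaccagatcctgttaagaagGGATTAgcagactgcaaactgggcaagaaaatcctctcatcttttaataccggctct
Aipl1, chr11:72037510-72037609, minus strand: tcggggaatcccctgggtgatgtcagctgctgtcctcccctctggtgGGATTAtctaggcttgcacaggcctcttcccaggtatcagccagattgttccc
Rbp3, chr14:33953903-33954002, plus strand: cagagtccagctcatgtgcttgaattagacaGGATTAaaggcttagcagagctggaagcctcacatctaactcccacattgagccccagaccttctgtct
Sag, chr1:87803580-87803679, plus strand: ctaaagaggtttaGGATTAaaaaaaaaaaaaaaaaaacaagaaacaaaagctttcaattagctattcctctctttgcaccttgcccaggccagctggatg
Opn1mw, chrX:74127366-74127465, plus strand: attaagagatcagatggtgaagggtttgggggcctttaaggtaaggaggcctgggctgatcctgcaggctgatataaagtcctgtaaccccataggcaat
The motif began 19 bases before the start in Gnat2, 53 in Aipl1, 57 in Guca1a, 69 in Rbp3 and 87 in Sag, in each case as GGATTA on the gene's own strand.

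Genes of the outer segment, its cilium and trafficking to it were mostly higher in cones. Of 24 measured members, 14 were higher in cones (16 without the third cone array) and 1 was higher in Arc cells, and the median was -1.51. Aipl1, a chaperone of the phosphodiesterase, had values of 4.13, 3.89 and 3.83 in Arc cells and 8.81, 8.55 and 7.72 in cones (fold -4.41 ± 0.54, adjusted p = 3.33e-06). Rom1 and Prph2, the paired proteins of the outer segment disc rim, differed by -3.41 ± 0.22 and -2.79 ± 0.27 (adjusted p = 3.14e-10 and 1.26e-07). Unc119, which carries lipid-modified transducin, had values of 8.44, 8.37 and 8.39 against 11.20, 11.09 and 10.71 (fold -2.60 ± 0.25, adjusted p = 1.21e-07). Its Arc values were well above the median of the arrays, so the Arc arrays carried this transcript too. Fscn2, Rpgrip1 and Rp1, of the outer segment cytoskeleton and connecting cilium, differed by -2.82, -2.72 and -2.60. The exception was Kif3a, a subunit of the kinesin that moves cargo along cilia and axons, which averaged 6.57 in Arc cells and 4.29 in cones (fold 2.28). Ift57 averaged 5.65 and 5.67 and was not called.

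Of 14 measured retinoid genes 3 were higher in cones and none was higher in Arc cells. Rbp3, the retinoid-binding protein of the space around outer segments, had values of 4.71, 3.43 and 3.99 in Arc cells and 8.74, 8.66 and 7.62 in cones (fold -4.29 ± 0.47, adjusted p = 7.72e-07). Rdh12, a retinol dehydrogenase of photoreceptors, differed by -3.13 ± 0.30 and Abca4, the retinoid flippase of outer segments, by -1.42 ± 0.24. The other 11 measured members were not called, among them Rdh8, Rdh13 and Rdh14, further retinol dehydrogenases, at -0.35 to -0.13, and Rpe65, Lrat and Rlbp1, which serve the cycle in pigment epithelium and glia, differed by -0.07 to 0.10.

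In the list for the ribbon synapse, the output synapse of cones, 8 of 19 measured genes were higher in cones and 1 was higher in Arc cells. With housekeeping centring 12 were higher in cones, and without the third cone array 9. The 8 include Nxnl1 and Nxnl2, described below, which are not synapse proteins. Cplx4, a complexin of ribbon synapses, had values of 4.0, 3.37 and 3.47 in Arc cells and 8.92, 8.65 and 8.53 in cones, and the third cone array lay close to the others (fold -5.09 ± 0.29, adjusted p = 6.54e-11). Its relative Cplx3 averaged 9.66 in Arc cells and 8.66 in cones and was not called (adjusted p = 0.123). Cacna1f, the pore of the ribbon synapse calcium channel, had values of 2.81, 2.99 and 2.91 against 5.78, 5.25 and 4.37 (fold -2.23 ± 0.36, adjusted p = 9.49e-05). Its partner Cacna2d4 differed by -1.05 with an adjusted p of 0.00701, a call lost without the second cone array (-0.79, adjusted p = 0.0554), and without the first or second Arc array its difference was just under 1 in size. Nxnl2 and Nxnl1, thioredoxin-like proteins that favour cone survival, differed by -3.03 ± 0.43 and -2.60 ± 0.33, and Lrit2 by -2.82 ± 0.33. Snap25, a membrane fusion protein of all neurons, was the member higher in Arc cells (fold 1.67 ± 0.15, adjusted p = 5.54e-08).

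Several of the leading cone genes lie outside the photoreceptor lists. Apela, a peptide ligand of the apelin receptor, had values of 2.21, 2.5 and 2.02 in Arc cells and 8.88, 8.68 and 7.10 in cones (fold -5.98 ± 0.74, adjusted p = 3.88e-06). Kcne2, an accessory subunit of potassium channels, had values of 3.75, 3.48 and 4.06 against 9.13, 9.05 and 7.88 (fold -4.92 ± 0.63, adjusted p = 5.74e-06). Vtn, the matrix protein vitronectin, had values of 5.05, 5.09 and 5.96 against 10.54, 10.21 and 9.54 (fold -4.73 ± 0.42, adjusted p = 4.16e-08). None of these 3 genes showed overlap between the groups. Vtn is also listed as a vessel gene. Of the other 9 measured vessel and pericyte genes only 2 were bright enough to be tested, and neither was called. Pecam1, Cldn5 and Cdh5 lay below the array median in both groups. The phosphatase gene Ppm1j differed by -4.50 ± 0.78 and the keratin gene Krt18 by -4.45 ± 0.64, both lowest among cones on the third array. Drd4, a dopamine receptor gene of photoreceptors, had values of 5.15, 4.54 and 4.55 against 8.25, 7.71 and 8.58 (fold -3.43 ± 0.47, adjusted p = 1.4e-05). In lipid handling, Mogat1, a monoacylglycerol acyltransferase, had values of 3.26, 6.53 and 3.24 against 9.27, 9.61 and 7.84, the second Arc array being the high one (fold -4.56 ± 1.02, adjusted p = 0.00283). Fabp7, a fatty acid binding protein, differed by -4.32 ± 0.84, while Fabp5 of the same family differed by 1.46 ± 0.27. The nicotinic subunit gene Chrna5, a neighbour of the reporter driver Chrnb4 on the chromosome, differed by -2.68 ± 0.79 with an adjusted p of 0.0205. That call was lost without the first or second Arc array or the first or second cone array in turn, at adjusted p of 0.0551 to 0.113.

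On the Arc side, 11 of the 20 measured transcription factor genes of amacrine cells had a mean above the array median in Arc cells, and 9 did in cones. Of 20 measured members, 6 were higher in Arc cells and 1 was higher in cones, and the median was 0.01. Tfap2b, an AP-2 factor of GABA and glycine amacrine cells, had values of 7.47, 6.96 and 7.44 in Arc cells and 3.29, 3.81 and 3.81 in cones (fold 3.66 ± 0.24, adjusted p = 3.64e-10). Its relative Tfap2a had 5.94, 5.72 and 5.87 against 2.98, 2.90 and 3.27 (fold 2.80 ± 0.20, adjusted p = 1.82e-09). Pax6, the homeobox gene kept on in amacrine cells, had 7.63, 7.62 and 7.15 against 4.58, 3.87 and 5.04 (fold 2.97 ± 0.28, adjusted p = 9.93e-08). For all 3 genes every Arc array lay above every cone array. Nr4a2, an orphan nuclear receptor, differed by 1.78 ± 0.16, Meis2 by 1.73 ± 0.31 and Lhx9 by 1.41 ± 0.25, the last 2 being homeobox genes. Isl1, a LIM homeobox gene of starburst and bipolar cells, was called higher in cones at -1.12 (adjusted p = 0.0491), but its value of 5.82 on the third cone array carried the call. Without that array the difference was -0.38 (adjusted p = 0.375), and the call was also lost without the first or the second Arc array (adjusted p = 0.107 and 0.191). The AP-2 motif GCCNNNGGC, on either strand, was in 20.4% of Arc promoters, 15.7% of cone promoters and 18.8% of the promoters of tested genes.

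Genes for GABA synthesis and packaging were higher in Arc cells. Gad1, which makes most GABA in neurons, had values of 8.52, 8.48 and 8.22 in Arc cells and 4.98, 4.45 and 6.17 in cones (fold 3.21 ± 0.28, adjusted p = 3.47e-08). Gad2, the synaptic form of the enzyme, had 6.18, 5.71 and 5.61 against 2.72, 2.21 and 3.05 (fold 3.17 ± 0.24, adjusted p = 3.84e-09). Slc32a1, the vesicular transporter shared by GABA and glycine, had 8.42, 8.30 and 8.21 against 6.59, 6.76 and 7.09 (fold 1.5 ± 0.17, adjusted p = 1.81e-06). These 3 were the called members among 7 measured, and each cone value was highest on the third array. The glycine transporters Slc6a9 and Slc6a5, markers of glycine amacrine cells, lay below the array median in both groups, at Arc means of 2.44 and 2.22. On the starburst arrays Gad1 averaged 8.22, close to the Arc mean of 8.41, while Gad2 averaged 2.30, and Arc cells exceeded starburst cells by 3.53 ± 0.24 for Gad2 (adjusted p = 6.86e-10) and by 0.19 for Gad1 (adjusted p = 0.848).

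**Figure D4:**
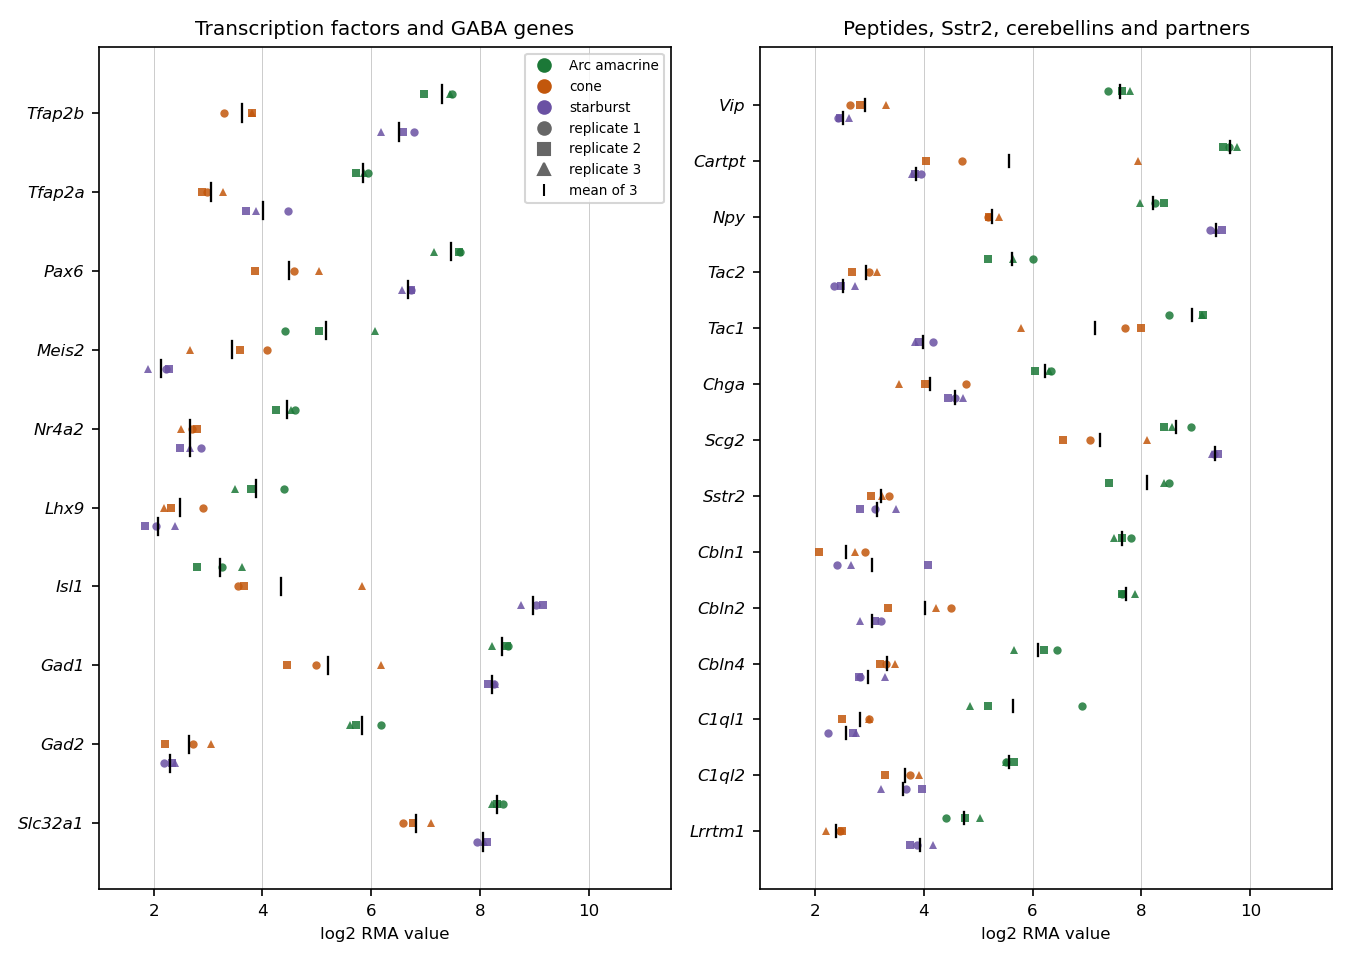
Log2 RMA values on each Arc, cone and starburst array of genes for transcription factors and GABA (left) and for peptides, Sstr2, cerebellins and partners (right); symbols mark replicates and the black tick the mean of 3. Vip, Cbln1, Cbln2 and Sstr2 lie higher on the Arc symbols than on the cone and starburst symbols, Gad1 and Npy are high in both amacrine groups, and Tac1 on the cone arrays ranges from 5.78 to 7.99.

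Neuropeptide genes gave some of the largest Arc differences. Of 25 measured precursors and granule genes 6 were higher in Arc cells and none was higher in cones. Vip, the vasoactive intestinal peptide, had values of 7.38, 7.64 and 7.80 in Arc cells and 2.65, 2.82 and 3.31 in cones (fold 4.67 ± 0.30, adjusted p = 3.1e-10). Npy, neuropeptide Y, had 8.25, 8.42 and 7.98 against 5.17, 5.21 and 5.39 (fold 2.96 ± 0.24, adjusted p = 1.14e-08). Tac2, the neurokinin B precursor, had 6.01, 5.19 and 5.64 against 3.00, 2.68 and 3.15 (fold 2.67 ± 0.27, adjusted p = 2.59e-07). In these 3 the groups were far apart on every array. Cartpt, the precursor of the CART peptides, had 9.62, 9.49 and 9.75 in Arc cells and 4.71, 4.05 and 7.93 in cones. The third cone array lay much nearer to the Arc arrays than the others did, and the fold was 4.06 ± 0.75 (adjusted p = 0.000508) with it and 5.24 without it (adjusted p = 5.09e-06). Tac1, the substance P precursor, averaged 8.92 in Arc cells, but the cone arrays read 7.69, 7.99 and 5.78, and its difference of 1.77 was not called. Chga and Scg2, granins of dense-core vesicles, differed by 2.12 ± 0.24 and 1.39 ± 0.27. The precursors Sst and Cck averaged 3.19 and 3.35 in Arc cells and were not called.

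Of the peptide and monoamine receptors 6 had a mean above the array median in Arc cells and 4 in cones, with 1 of 23 measured members higher in Arc cells and Drd4, given above, higher in cones. The Arc gene was Sstr2, a somatostatin receptor that lowers cyclic AMP, with values of 8.50, 7.41 and 8.41 in Arc cells and 3.37, 3.04 and 3.23 in cones (fold 4.89 ± 0.29, adjusted p = 1.28e-10). The other somatostatin receptors measured, Sstr1, Sstr3 and Sstr4, differed by -0.16 to 0.18. Vip and Sstr2 share the letters TGACGTC, the core of the cyclic AMP response element, shortly before their starts, in capitals below on the same RefSeq build. The last 100 bases are printed because these 2 genes lead the Arc peptides and receptors.
Vip, chr10:5639118-5639217, plus strand: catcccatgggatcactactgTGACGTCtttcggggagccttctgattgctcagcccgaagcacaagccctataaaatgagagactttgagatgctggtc
Sstr2, chr11:113619227-113619326, plus strand: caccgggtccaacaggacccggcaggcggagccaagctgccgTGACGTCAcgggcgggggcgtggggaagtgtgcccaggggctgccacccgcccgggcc
The stretch began 79 bases before the start in Vip and 58 in Sstr2, where it runs on to the full palindrome. Counting TGACGTC on either strand in 250 bases, 4.90% of Arc promoters held it, against 3.4% of cone promoters and 4.26% of the promoters of tested genes. It was searched for after these 2 promoters had been read.

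Cerebellins are secreted proteins that bridge neurexins on the axon side to glutamate receptor delta subunits across the synapse, and C1q-like proteins belong to the same family. Of 16 measured members of this list 6 were higher in Arc cells and none was higher in cones, or 7 and 1 without the third cone array. The median was 0.56, or 0.07 with housekeeping centring, under which 6 were called higher in Arc cells. Cbln1 had values of 7.81, 7.64 and 7.5 in Arc cells and 2.92, 2.08 and 2.74 in cones (fold 5.07 ± 0.42, adjusted p = 1.58e-08). Cbln2 had 7.65, 7.64 and 7.88 against 4.49, 3.34 and 4.23 (fold 3.70 ± 0.34, adjusted p = 8.08e-08). Cbln4 had 6.44, 6.21 and 5.66 against 3.31, 3.20 and 3.47 (fold 2.77 ± 0.31, adjusted p = 9.7e-07). The 3 genes thus lay above every cone array, while Cbln3 averaged 2.45 and 2.49 and was too dim to be tested. C1ql1 had 6.90, 5.19 and 4.86 against 2.99, 2.5 and 3.0, highest on the first Arc array (fold 2.82 ± 0.33), and C1ql2 differed by 1.90 ± 0.28. C1ql3 averaged 5.0 in Arc cells and 5.71 in cones and was not called with all arrays, but was called higher in cones without the third cone array (-1.09, adjusted p = 0.0403) and with housekeeping centring. Lrrtm1, a postsynaptic partner of neurexins, differed by 2.35 ± 0.28, and Grid1, a delta receptor subunit, averaged 2.40 and 2.59.

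The genes with the largest folds outside these groups included Klhl32, a kelch family gene, with values of 9.22, 9.02 and 8.30 in Arc cells and 2.49, 4.59 and 3.52 in cones (fold 5.32 ± 0.86, adjusted p = 0.000115). Wfikkn2, which encodes a secreted binder of myostatin-type growth factors, had 7.58, 7.09 and 6.16 against 2.19, 2.63 and 2.68 (fold 4.44 ± 0.33, adjusted p = 2.68e-09). Igfbp2, an insulin-like growth factor binding protein, had 7.56, 8.06 and 7.52 against 4.27, 3.38 and 3.48 (fold 4.0 ± 0.33, adjusted p = 1.32e-08). The groups were apart in all 3. Igf1r, Igfbp4 and Igfbp5 of the same pathway averaged 2.07 to 2.97 in both groups and were not called. Lor, the cornified envelope protein loricrin of skin, had 9.57, 9.10 and 8.14 against 6.22, 4.66 and 3.46 (fold 4.16 ± 0.94, adjusted p = 0.00311), and its adjusted p was 0.0652 when tested against a log2 fold of 1. Nudt11, Ube2ql1 and Tagln3, of inositol pyrophosphate turnover, ubiquitin transfer and actin binding, had folds of 4.73, 4.58 and 4.26. Frmd5, Plppr5, Gdpd3 and Dnajb3 had folds of 4.09, 3.99, 3.95 and 3.88.

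The called GABA, glycine and glutamate receptor genes were all higher in Arc cells, while the nicotinic genes Chrna5 and Chrnb4, given above, were called higher in cones. Those bright enough to be tested were 11 GABA-A and glycine, 6 ionotropic and 6 metabotropic glutamate receptor genes. The share of all tested genes called higher in Arc cells was 7.83%. Among GABA-A and glycine receptor genes 3 of 18 were called, Gabra3 at 1.57 ± 0.18, the shared beta subunit Glrb at 1.27 ± 0.23 and Gabrb1 at 1.18 ± 0.29, the last losing its call without the first Arc array (0.97, adjusted p = 0.045). Among 14 ionotropic glutamate receptor genes Gria3 and Gria4, subunits of AMPA receptors, differed by 1.95 ± 0.25 and 1.76 ± 0.26. Cacng3 and Cacng2, auxiliary proteins of AMPA receptors that are listed with calcium channels, differed by 2.78 ± 0.47 and 1.71 ± 0.37. These 4 genes act at the same class of excitatory synapse. Of 7 metabotropic receptors Grm8 was called, at 1.21, and without the third cone array its fold was 0.97, under the size a call needs. With arrays centred on housekeeping genes 1 GABA-A member was higher in Arc cells and 2 were higher in cones.

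Potassium channels divided 5 to 1 among 32 measured genes. Kcnip1, a calcium-binding subunit of A-type channels, had values of 6.79, 6.55 and 6.99 in Arc cells and 2.78, 2.62 and 3.95 in cones (fold 3.66 ± 0.39, adjusted p = 6.74e-07). Kcna5 differed by 2.49 ± 0.49, Kcnk1 by 1.82 ± 0.25, Kcnn2 by 1.41 ± 0.25 and Kcnc2 by 1.38 ± 0.23. Kcne2, given above, was the member higher in cones. With housekeeping centring the split was 3 to 5. No voltage-gated sodium channel gene was called among 7 measured, 1 of which was tested. Ion pumps and exchangers gave 6 higher in Arc cells and 1 higher in cones of 17 measured, and 4 and 3 with housekeeping centring. Slc8a1, a sodium-calcium exchanger, had 7.53, 7.52 and 7.61 against 3.45, 3.31 and 5.61 (fold 3.43 ± 0.43, adjusted p = 4.81e-06). Atp1b1, a sodium pump beta subunit, had 6.32, 6.41 and 6.46 against 3.58, 3.08 and 3.37 (fold 3.05 ± 0.26, adjusted p = 1.86e-08). Slc1a2, a glutamate transporter of cone endings and glia, was the member higher in cones (fold -1.95 ± 0.48).

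Genes of neurites and the cytoskeleton had the highest median of the lists, 1.03, which was 0.54 with housekeeping centring. Of 23 measured, 11 were higher in Arc cells and 1 was higher in cones, and 6 and 1 with housekeeping centring. Uchl1, an abundant neuronal ubiquitin hydrolase, had values of 7.54, 7.72 and 7.52 in Arc cells and 4.03, 4.03 and 3.96 in cones (fold 3.59 ± 0.30, adjusted p = 1.5e-08). Gap43, a growth cone protein, had 7.82, 7.33 and 7.43 against 4.51, 4.79 and 4.26 (fold 3.01 ± 0.24, adjusted p = 8.81e-09). Marcks, which links membrane and actin, differed by 2.81 ± 0.28 (adjusted p = 1.67e-07). In these genes every Arc array lay above every cone array. Ina, Thy1 and Stmn2 differed by 2.65, 2.33 and 1.93, and Dpysl3 by -1.35. Neuronal RNA-binding proteins gave 5 of 17 higher in Arc cells and none higher in cones, or 4 and 1 without the third cone array, where Khdrbs2 was lost (adjusted p = 0.077) and Msi2 was called (-1.10, adjusted p = 0.00838). With housekeeping centring they were 3 and 1. Those higher in Arc cells included Elavl4 at 3.29 ± 0.28, Celf4 at 2.45 ± 0.25 and Elavl3 at 2.02 ± 0.37. Among 32 synaptic vesicle genes 8 were higher in Arc cells (9 without the third cone array). They included the synaptotagmins Syt11 at 2.73 ± 0.35 and Syt4 at 1.74 ± 0.20 and Dnm1, which cuts off endocytic vesicles, at 1.76 ± 0.17. The 3 higher in cones were Cplx4, Sv2b and the vesicular glutamate transporter Slc17a7, whose call was lost without the first cone array (-0.84, adjusted p = 0.0626).

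Energy metabolism differed in a few glycolytic genes rather than across the mitochondrial list. Of 20 glucose and glycolysis genes 5 were higher in Arc cells and the monocarboxylate transporter gene Slc16a1 was higher in cones (-1.42, adjusted p = 0.0222). That call was lost without the second cone array (-0.81, adjusted p = 0.169) and without the first or the third Arc array (adjusted p = 0.0676 and 0.0616). Aldoc, the neural aldolase, had values of 10.51, 10.69 and 10.44 in Arc cells and 8.56, 8.6 and 7.96 in cones (fold 2.17 ± 0.18, adjusted p = 1.32e-08). Ldhb, the lactate dehydrogenase subunit that favours pyruvate, had 8.12, 8.81 and 9.05 against 5.82, 7.02 and 7.47 (fold 1.89 ± 0.33, adjusted p = 0.000291), while Ldha averaged 9.69 and 9.73. Eno2, the neuronal enolase, differed by 1.46 ± 0.33 and Pfkm by 1.44 ± 0.33. With housekeeping centring 2 members were called higher in Arc cells. Hk1, the main hexokinase of retina, averaged 10.46 and 10.62. Of 29 oxidative phosphorylation genes Ndufa6 alone was called (1.17 ± 0.22), and of 13 ribosomal protein genes Rpl14 alone (1.27 ± 0.23), neither of them higher in Arc cells with housekeeping centring. The called genes of highest value on the Arc arrays were Mif, Srgap3, Aldoc, Cd63 and Pcp4. Srgap3, which shapes neurites through Rac, had 11.59, 11.69 and 11.51 in Arc cells and 8.92, 8.85 and 9.65 in cones (fold 2.46 ± 0.26, adjusted p = 4.03e-07). Pcp4, a calmodulin regulator, had 10.54, 10.28 and 10.44 against 6.90, 6.66 and 9.73, and its fold of 2.66 was 3.64 without the third cone array. On the cone arrays the corresponding genes were Guca1a, Pde6h, Sag, Unc119 and Cst3. Cd63 (1.04) and Cst3 (-1.01) lie next to the fold a call needs, and left it without 1 array, Cd63 at 0.90 without the first cone array and Cst3 at -0.95 without the second Arc array.

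Few activity-regulated genes were called between the groups. Of 21 measured immediate early genes, Arc and Nr4a2 were higher in Arc cells and Btg2 was higher in cones (-1.53 ± 0.28, adjusted p = 0.00049). Fos, Egr1 and Npas4 averaged 3.34, 2.78 and 2.71 in Arc cells and 3.31, 2.84 and 2.73 in cones. Egr1 and Npas4 thus lay near the array median of 2.83, where a level cannot be told from background, and Fos little above it. Jund and Dusp1 differed by 0.68 and 0.87 and were not called. Of 12 heat shock genes Dnaja1 alone was called (1.54 ± 0.19), and without the third cone array Hspb1 was called too (1.19, adjusted p = 0.0162).

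**Figure D5:**
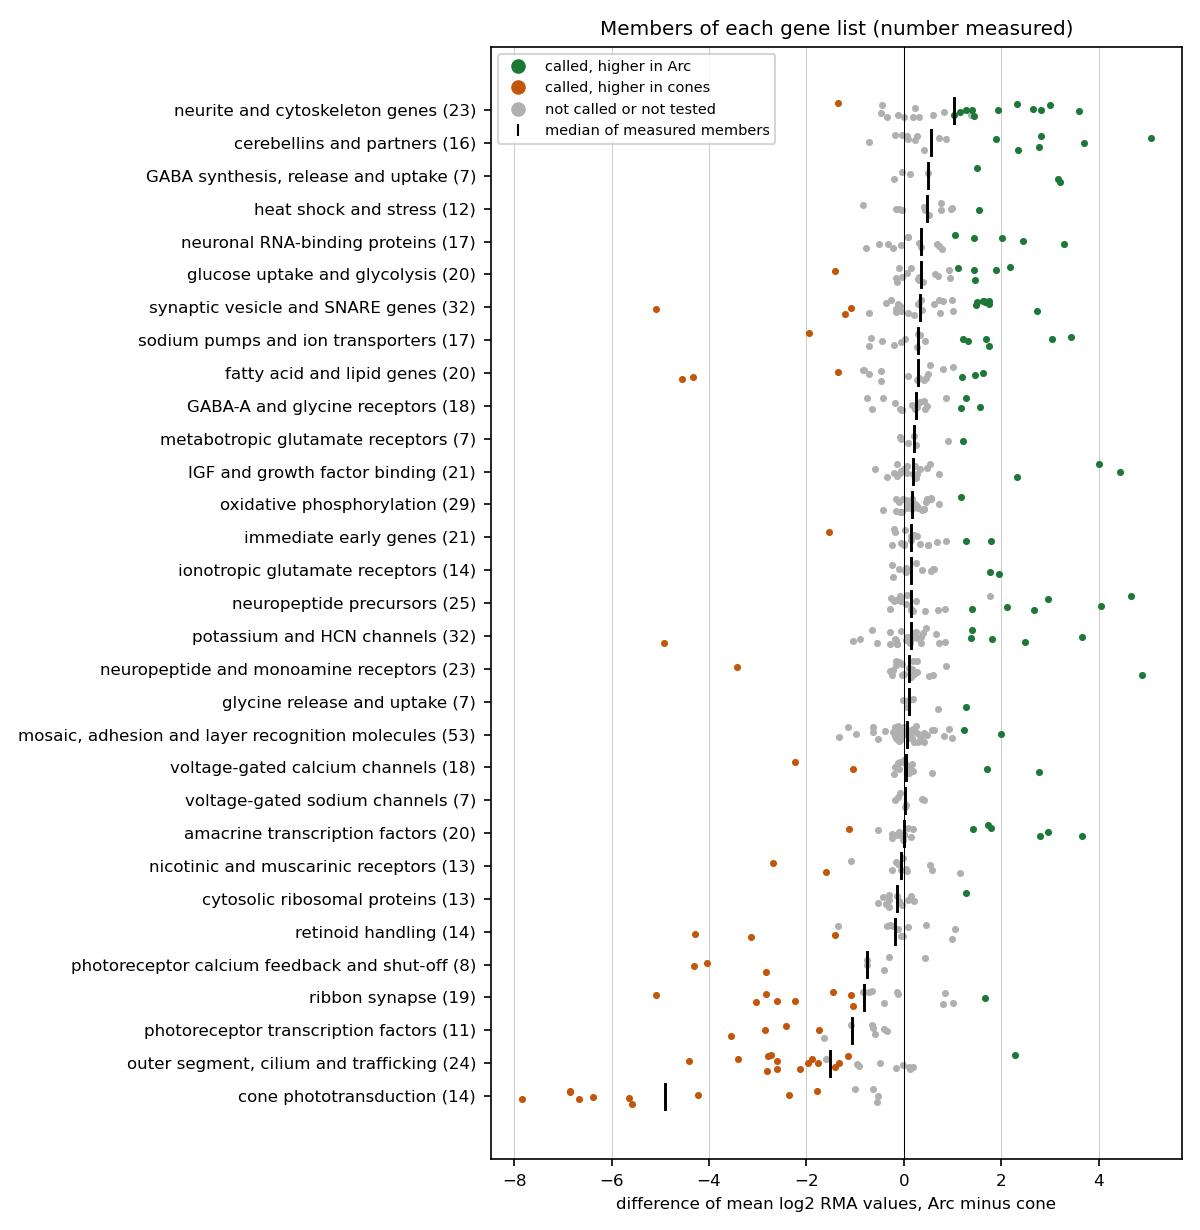
Difference of mean log2 RMA values, Arc minus cone, for every measured member of each pathway list, ordered by the list's median (black tick), with called members in green (higher in Arc cells) or orange (higher in cones). The cone phototransduction list lies at a median of -4.90 and the neurite list at 1.03, while most lists hold a few called genes around a median near 0.

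The starburst arrays show which of these differences were also found against another amacrine type. Cones and starburst cells were sorted from joint pools, and Arc cells came from another line. In a difference from both, cell type, mouse line and any batch cannot be told apart. Arc cells had 269 genes higher (2.16%) and 173 lower (1.39%) than starburst cells by the same call. The 2 comparisons share the Arc arrays, so their values are given side by side and not as separate evidence. Sstr2 exceeded cones by 4.89 and starburst cells by 4.97 (adjusted p = 5.33e-11), Vip by 4.67 and 5.09 (adjusted p = 4.11e-11), and Cbln1 by 5.07 and 4.60 (adjusted p = 8.46e-08). Cartpt exceeded them by 4.06 and 5.76, Igfbp2 by 4.0 and 4.36, Lor by 4.16 and 6.51, and Frmd5 by 4.09 and 4.77. Plppr5, Gdpd3 and Wfikkn2 completed the 10 genes of largest excess over both, at 4.39, 3.85 and 3.81 over starburst cells. Other Arc genes were at like levels in starburst cells. Ube2ql1 averaged 9.22 in Arc and 9.46 in starburst cells, Slc8a1 7.55 and 7.36, Cacng3 6.34 and 6.51, and Npy 8.21 and 9.37. Tfap2b differed between the amacrine groups by 0.78 (adjusted p = 0.0563) and Pax6 by 0.80 (adjusted p = 0.115).

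A few genes were lower in Arc cells than in either other group, and the same limit of line and batch holds for them. Hpcal1, a neuronal calcium sensor, had values of 4.17, 5.10 and 5.61 in Arc cells, 7.17, 7.24 and 6.57 in cones and a mean of 8.12 in starburst cells (folds -2.03 and -3.16, adjusted p = 3.31e-05 and 1.21e-07). Guca1a, Rom1 and Cplx4 averaged 9.11, 8.52 and 5.32 in starburst cells, between the Arc and cone means, and differed from them by -1.66, -1.44 and -1.70. Summed rod and cone lists were 1012 to 1747 and 135 to 324 on the starburst arrays and 598 to 860 and 115 to 229 on the Arc arrays. The part of photoreceptor RNA in the 3 differences was not tested. H1f2, a linker histone, differed from cones by -3.37 and from starburst cells by -2.08 (adjusted p = 0.0192); the latter call was lost without any of 4 of the 6 arrays in turn, with adjusted p of 0.0638 to 0.106.

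Markers of other retinal cells bear on what the sorted pools held. Bipolar cell genes were higher on the cone arrays in 7 of 16 measured cases (5 without the third cone array) and in none on the Arc arrays, the list summing to 615 to 674 on cone and 142 to 150 on Arc arrays. Among them Lrtm1, Scgn and Cabp5 differed by -3.78, -2.76 and -2.60, Gng13 reached its highest value of 7.70 on the third cone array, and the call of Pcp2 (-1.87) was lost without any of 4 arrays in turn, at -1.20 and an adjusted p of 0.207 without the third cone array. The remaining called members were Otx2, given above with the photoreceptor factors, and Isl1, whose call was lost without the third cone array. The defining bipolar genes Grm6, Vsx1, Trpm1 and Prkca averaged 2.24 to 2.99 in both groups. Means above the array median were found for 9 of 16 bipolar genes in Arc cells and 11 in cones. Ganglion cell genes summed to 348 to 465 on Arc and 141 to 167 on cone arrays with Thy1 and Gap43 as the called members. Here 8 of 13 measured genes had a mean above the array median in Arc cells and 7 in cones, while Rbpms, Pou4f1, Pou4f3 and Slc17a6 lay below it. Of 18 Muller glia genes 3 were higher in Arc cells, namely Dkk3, Car2 and Dbi (Dbi not without the third cone array, at an adjusted p of 0.216, nor without the first or second Arc array, at 0.124 and 0.0731). The list summed to 1022 to 1322 on Arc and 738 to 1023 on cone arrays. In it 11 of 18 genes had a mean above the array median in Arc cells and 15 in cones, while Slc1a3, Aqp4 and Abca8a were below it. Horizontal cell genes were called higher in Arc cells in 4 of 10 cases, Tfap2a, Atp1b1, Tpm3 and Septin4. Neither Tpm3 nor Septin4 was called under quantile normalization or housekeeping centring. Tpm3 (1.01) was also not called without the first or the third Arc array or the first cone array. In each group 6 of the 10 genes had a mean above the array median, while Lhx1 and Calb1 lay below it. No astrocyte, microglia or pigment epithelium gene was called. Of the 7, 12 and 12 measured, only 4, 7 and 5 were bright enough to be tested. Starburst genes summed to 335 to 362 on Arc, 139 to 204 on cone and 3467 to 3725 on starburst arrays. Of 14 measured, 7 had a mean above the array median in Arc cells and 9 in cones. Slc18a3 had a mean of 3.08 in Arc cells against 10.66 on the starburst arrays. Only Ache and Kcnc2 of the list were called higher in Arc cells than in cones, and Isl1, given above, was called higher in cones. With housekeeping centring none of the Muller glia genes was higher in Arc cells and 3 were higher in cones, and the starburst list turned to 1 and 2. Their part in the results was not tested.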

How the data were processed

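Per the submitters' processing notes, the authors used RMA from oligo in R 2.11.1 and named build mm9, and the deposited values are on the log2 scale. Which arrays shared a normalization is not given in the sources used here. Of 22347 probe sets, 19446 carried 1 gene symbol in the platform table, 735 several and 2166 none, and the last 2 kinds were left out. A gene was tested where 3 or more of the 27 arrays exceeded 2.83, the overall median. A single linear model over every array (limma 3.58.1, R 4.3.3) gave each group its own mean and left 18 residual degrees of freedom, with two-sided tests, Benjamini-Hochberg adjustment over the 12441 genes and calls at an adjusted p under 0.05 and a log2 fold change of 1 or more in size. The number of arrays limits the precision. The labels call the replicates biological.

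Named genes were the 15 of largest fold in each direction with groups that did not overlap, the 10 of largest excess over both other groups in each direction, up to 6 called and 3 uncalled members of each list, the 5 called genes of highest value in each group, and the markers and reporter drivers. List members named beyond this rule, and the motifs, were picked after their values were seen. The members and the 45 lists (743 genes, 674 measured) were chosen with earlier results of these data known. In 133 genes with several probe sets, 0 had them called in opposite directions and 15 had one called and another not. Tested on simulated data for Arc against cone with 12441 genes, the fit recovered 32% of genes changed by a log2 fold of 1, 90% of 2, 98% of 3 and 100% of 4. A call needs an estimated fold of 1, so a true fold of 1 is often missed. The simulated noise was normal with 1 spread per gene for all arrays. It therefore lacked the wider scatter of the cone arrays. Promoter sequences are from RefSeq (GRCm38.p6). Alternatives covered the filter, normalization, scaling, weights, replicate block, test and each array left out.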

Additional observations from a re-analysis of the deposited data

How the results depend on the processing

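As reported, 1286 genes were called between Arc cells and cones. The count stayed within 1.5 times this under no filter, a filter at 4, the 6 arrays alone, repeated quantile normalization, centring on medians, array weights, a trended robust prior, the mean of probe sets and housekeeping centring, but housekeeping centring moved the directions to 457 higher in Arc cells and 1039 higher in cones; the cause was not tested. Testing against a log2 fold of 1 in place of 0 left 276 genes (202 and 74), and 100 of 442 for Arc against starburst cells, as a stricter null does. Leaving out each array in turn gave 1062 to 1340 genes, 808 to 1050 higher in Arc cells and 254 to 398 higher in cones, and, leaving out each Arc or starburst array, 371 to 421 against starburst cells. Without the third cone array the counts were 833 and 398. Of the 155 named genes called, 138 were called in all 6 of these fits and 144 to 150 in each. The 30 leading genes were called in 509 of 510 alternative fits. Both sets were picked from calls on the same arrays that these fits reuse, so the counts are no separate evidence for the calls. No named gene was called in opposite directions by any setting. Deviations of same-numbered Arc and cone arrays correlated at 0.073, 0.018 and 0.095. With so few arrays per group these values cannot decide whether the replicate numbers pair the samples. The fit with the replicate block called 1331 genes (986 and 345) and 449 against starburst cells. RMA values carry no detection call, and which arrays were hybridised together is not given in the sources used here.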

Other observations

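Gene families outside the lists above, picked after their values were seen, also held several called members. The shares over all tested genes were 7.83% called higher in Arc cells and 2.51% called higher in cones. Subunits of the vesicular proton pump, which acidifies lysosomes and synaptic vesicles, were called higher in Arc cells in 9 of 24 measured genes, 19 of them tested. None was called higher in cones. They were led by Atp6v1g2 at a log2 fold change of 2.21 (adjusted p = 5.75e-06) and Atp6v0d1 at 2.03 (adjusted p = 3.19e-05), and with housekeeping centring 4 were called. Of 10 Bex and Tceal genes, small X-linked genes of neurons, 7 were higher in Arc cells, led by Bex4 at 2.34 (adjusted p = 0.000108), and 2 with housekeeping centring. Of 12 G protein gamma subunits 3 were higher in Arc cells and 3 in cones (2 and 5 with housekeeping centring), with Gng8 at 3.82 and Gng3 at 3.26 higher in Arc cells and Gngt2 at -4.23, Gngt1 at -2.75 and Gng13 at -2.65 higher in cones. The 14-3-3 gene Ywhah differed by 3.48 (adjusted p = 4.23e-06).

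On the cone side, 5 of 41 measured histone genes, 27 of them tested, were higher and none was lower. The 5 were H2bc4 at -3.75 (adjusted p = 1.38e-10), H1f2, H2al2a, H2aw and H4c9. Olfactory receptor genes were called in 13 of 1005 measured cases, all higher in cones, among 309 that were tested, against 2.51% of all tested genes called higher in cones; with housekeeping centring 64 were called. Of the genes higher in Arc cells 6.48% lay on the X chromosome, against 2.81% of tested genes and 1.60% of genes higher in cones. These shares are of calls on the deposited scale. Among sex-linked genes Xist differed by 0.75 and Eif2s3y by -0.80, neither called with all arrays. Without the third Arc array Xist was called (1.81, adjusted p = 0.0223). The part of sex in these shares was not tested. Gene span did not separate the sets, with medians of 17005 bases for genes higher in Arc cells, 18372 for genes higher in cones and 18026 for all tested.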
